A study of Mus musculus with 3 samples.

Results

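Amino acid and peptide transporters, the membrane carriers that move the products of protein digestion into and out of cells, were followed in whole proximal jejunum of mice with a villin-Cre knockout of Sox4. The members were all genes whose symbol on the array begins with Slc1a, Slc3a, Slc6a, Slc7a, Slc15a, Slc36a, Slc38a or Slc43a and a number, except 1 gene not analysed here. This gave 65 genes with 99 features (spots with their own number) among 20738 genes with 31465 features. The rule used symbols and no measured value. It also took in Slc7a6os, which lies beside Slc7a6 on the opposite strand and is not a carrier gene, so 64 of the members encode carriers or their heavy chains.

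RNA of whole proximal jejunum, the part of the small intestine that follows the duodenum, was compared on 3 arrays with 2 colours. On each array 1 Sox4 knockout mouse, labelled Sox4 vilCre KO, carried Cy5, and RNA of wild-type jejunum carried Cy3. Villin-Cre acts in the intestinal epithelium, whereas the RNA came from the whole wall with its muscle, nerves, blood, immune cells and attached fat. The ages and sexes of the mice, and whether the wild-type RNA was pooled, are not given in the labels used here. The series as a whole asks what Sox4, a transcription factor of the SoxC group, does in the dividing and maturing cells of the gut lining, DNA methylation included.

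Dietary protein reaches the jejunal enterocyte as free amino acids and as short peptides. Carriers of the brush border draw them in with sodium or proton gradients or by exchange, and carriers of the basolateral membrane pass amino acids on to the blood. The Slc6 and Slc1 families also clear neurotransmitters around neurons and glia, and members of the Slc15, Slc36 and Slc38 families work in the lysosome. Heavy chains of the Slc3 family bring the light chains of the Slc7 family to the membrane.

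Every value is a log2 ratio, knockout divided by wild type, so 0 is no difference and 1 is a doubling. They are given for arrays 1, 2 and 3 in that order, followed where needed by the mean ± SD over n = 3 arrays. No level was available, so genes are compared by their ratios and never by their abundance. Sox4 itself had -0.66, 0.18 and -0.46, so on array 2 the library labelled as knockout had a feature mean slightly above that of wild type. Its 3 features disagreed, with 0.06, 1.23 and -0.02 for the first, -0.82, 0.03 and -0.43 for the second and -1.21, -0.72 and -0.93 for the third, so that 1 of them was below 0 on every array. The Y-linked gene Eif2s3y (-7.28 ± 0.25) and Xist (1.71 ± 0.18), which is expressed from the inactive X chromosome, differed on every array, so sex and genotype cannot be told apart for any gene below. All directions rest on the labels, with the direction of the ratio taken from the dyes. The log base is not stated and was taken as 2.

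Of the 65 transporter genes, 1 passed the threshold of an adjusted p under 0.05 in limma's test over all genes, where 0.328% of all genes passed. This was Slc15a2, which was lower in the knockout. An unadjusted p under 0.05 was found for 15 members, 6 of them higher and 9 lower in the knockout (12.0% and 14.3% of all genes). That is 23.1% of the members, beside 26.3% of all genes. The median ratio was -0.02 over the members and -0.03 over all genes, and the quartiles of the members were -0.23 and 0.16, beside -0.24 and 0.19 for all genes. The same sign on all 3 arrays was found for 33 members, 13 above 0 and 20 below, or 50.8% beside 50.6% of all genes (27.3% of all genes were below 0 on all arrays). A mean below 0 was found for 34 members, beside 53.5% of all genes. As a list the transporters thus had shares and a median near the background of the array.

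A few members lay far from 0. Slc6a3, Slc36a2 and Slc15a2 had a mean of at least 1 in size, where 1.72% of all genes did, and all were lower (1.19% of all genes were lower by as much). Another 7 members had an adjusted p between 0.05 and 0.1. Of these Slc1a1, Slc1a4 and Slc38a7 were above 0, and Slc6a3, Slc7a14, Slc36a2 and Slc38a11 below. Each of the 7 had the same sign on all 3 arrays (50.6% of all genes did), which largely follows from choosing them by p.

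**Figure D1:**
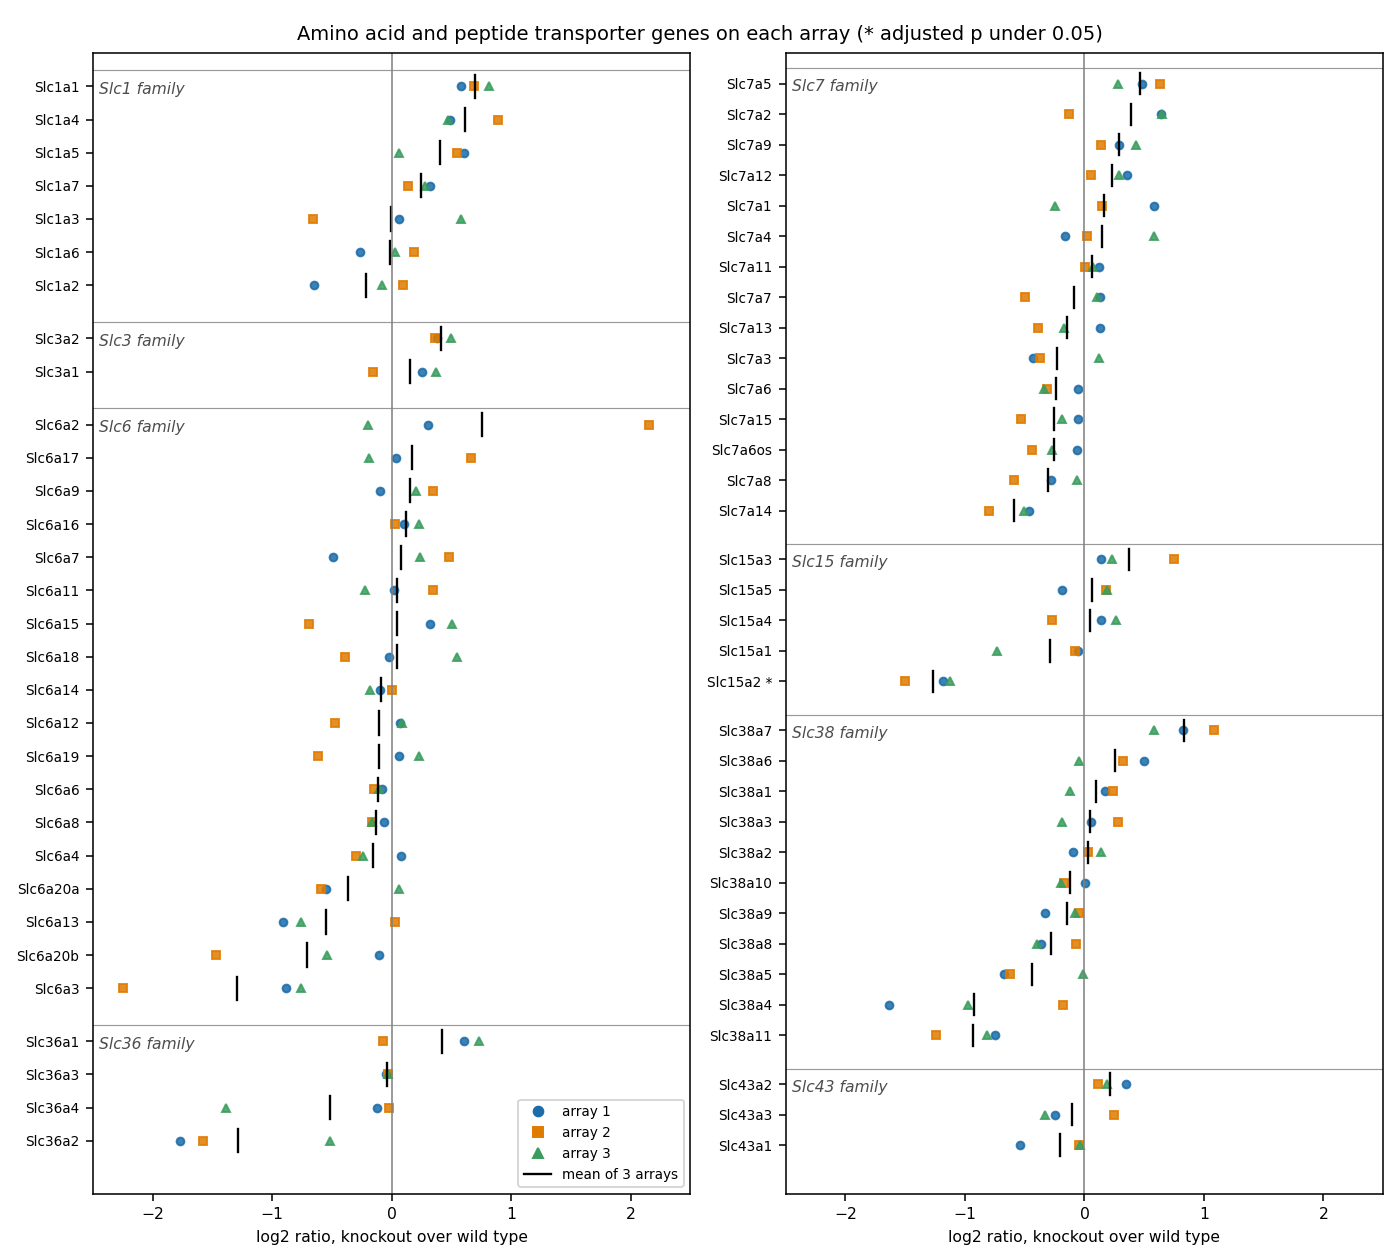
Log2 ratio of knockout over wild type (horizontal axes) for each of the 65 members (rows), grouped by Slc family and ordered by mean within it. Points are the 3 arrays, black ticks the means. Slc15a2, marked with a star, lies between -1.50 and -1.13 on the 3 arrays, and most other members lie within 0.5 of 0 or change sign between arrays.

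Of the 5 members of the Slc15 family of peptide carriers, 1 passed limma's threshold, lower in the knockout (0.222% of all genes did so). On every array 2 of the 5 were below 0 (27.3% of all genes were). Slc15a2, the high-affinity proton-coupled carrier of di- and tripeptides known from kidney and glia, had -1.18, -1.50 and -1.13. All of its arrays were below -1, and array 2 was the lowest. The mean was -1.27 ± 0.20 (2.41-fold lower, 95% interval -1.59 to -0.95, adjusted p = 0.0461). Slc15a1, the low-affinity peptide carrier of the enterocyte brush border, had -0.06, -0.08 and -0.73, so that array 3 alone was far from 0. Its mean of -0.29 ± 0.38 did not pass (adjusted p = 0.329), with a 95% interval of -0.72 to 0.14. The difference between these carriers was not tested.

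With any 1 array left out, Slc15a2 kept a mean between -1.34 and -1.16 but did not pass. Its adjusted p with arrays 1, 2 and 3 left out in turn was 0.229, 0.0675 and 0.209, and 10, 66 and 4 genes of the whole table passed in these fits (0.0482%, 0.318% and 0.0193%). No member passed in them, while 9, 17 and 14 members had an unadjusted p under 0.05 (15.8%, 22.1% and 18.7% of all genes). Slc15a2 rests on 1 feature, and without signal intensities its distance from the background of the array is not known. In whole tissue, fewer cells that express a gene and less of its RNA in each cell cannot be told apart. Of 5 enteric glia genes measured, S100b had -0.60 ± 0.12, Foxd3 -0.47 ± 0.34 and Cdh19 -0.60 ± 0.85. Gfap had 0.29 ± 0.23 and Sox10 0.26 ± 0.24. The glia list had a median of -0.47, with 3 genes below 0 and 2 above, and medians of -0.47, -0.61 and 0.35 on the arrays. Among 10 macrophage and dendritic cell genes the median was 0.20, with 8 above 0 by mean (46.4% of all genes were). Their array medians were -0.003, 0.49 and 0.07, so that array 2 alone was far from 0. The part of either cell type in the Slc15a2 ratio was not tested.

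The stretch before the start of Slc15a2 is shown because this is the member that passed. It holds ACAAT, the core that SOX proteins bind, as its last 5 bases, and the capitals mark it (chr16:36784963-36785212, minus strand, GRCm38.p6, RefSeq).
Slc15a2: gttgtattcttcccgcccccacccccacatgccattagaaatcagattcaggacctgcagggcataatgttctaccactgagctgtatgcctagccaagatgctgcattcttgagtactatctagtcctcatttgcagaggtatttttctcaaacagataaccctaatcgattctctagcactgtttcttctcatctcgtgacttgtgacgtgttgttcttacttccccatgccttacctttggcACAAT
ACAAT was searched on both strands of the 300 bases around each start, 250 before and 50 after. It stood in 31% of all 32851 such windows and in 16 of the 67 windows (23.9%) that belonged to 47 of the members. These letters therefore do not set Slc15a2 apart, and a match is not a binding site.

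The other Slc15 members lay above 0 on average. Slc15a3, a lysosomal carrier of peptides and histidine found in immune cells, had 0.14, 0.75 and 0.23, above 0 on every array (0.37 ± 0.33, adjusted p = 0.209). The related lysosomal carrier Slc15a4 had 0.14, -0.27 and 0.27, and Slc15a5 -0.18, 0.18 and 0.19. The family median was 0.05.

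Apical uptake carriers of the enterocyte, a list of 10, had none past limma's threshold and 2 with an unadjusted p under 0.05, both higher (12.0% of all genes had such a p and were higher). The list had a median of 0.03, with 5 members above 0 and 5 below. Slc1a1, the sodium-coupled carrier of glutamate, aspartate and cysteine, had 0.58, 0.69 and 0.81, above 0.5 on every array. Its mean was 0.70 ± 0.11 (1.62-fold higher, 95% interval 0.41 to 0.98, adjusted p = 0.0653), just outside the threshold. It is measured by 10 features, which ran from 0.38 to 0.71 on array 1, from 0.65 to 0.73 on array 2 and from 0.75 to 0.90 on array 3. All features were thus above 0 on every array, and the SD over features within an array was 0.10 at most. The features share the same 3 arrays and RNA, so their agreement shows repeated measurement and adds no replicates.

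Slc1a5, an exchanger of glutamine and other neutral amino acids, had 0.61, 0.55 and 0.06 (0.40 ± 0.30, adjusted p = 0.169). Array 3 was near 0, and the 2 features disagreed on array 1, at 0.25 and 0.97. Slc36a1, the proton-coupled carrier of proline, glycine and alanine, had 0.60, -0.07 and 0.73 (0.42 ± 0.43, adjusted p = 0.218). Array 2 differed from the other two arrays, and there its features had opposite signs, at -0.45 and 0.30.

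The Slc6 carriers of the list had means below 0, and none had an unadjusted p under 0.05. Slc6a19, the main neutral amino acid carrier of the brush border, had 0.06, -0.61 and 0.23 (-0.11 ± 0.44, adjusted p = 0.737), below 0 on array 2 and above 0 on the others. Slc6a20a, which carries proline and other imino acids, had -0.55, -0.59 and 0.06 (-0.36 ± 0.37, adjusted p = 0.235). Its neighbour Slc6a20b, a related carrier chosen after its values were seen, had -0.11, -1.47 and -0.54 (-0.71 ± 0.69, adjusted p = 0.173), below 0 on every array but unevenly so. Slc6a14, a carrier of neutral and cationic amino acids, had -0.10, 0.00 and -0.18, and the taurine carrier Slc6a6 had -0.08, -0.15 and -0.10. The Slc6a6 ratio varied little (SD 0.03), and its 95% interval was -0.39 to 0.16.

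Slc7a9 and Slc3a1, the light and heavy chain of the brush border exchanger of cystine and cationic amino acids, were set side by side as partners. Slc7a9 had 0.29, 0.14 and 0.43 (0.29 ± 0.15, adjusted p = 0.204), above 0 on every array. Slc3a1 had 0.26, -0.16 and 0.37 (0.16 ± 0.28, adjusted p = 0.525). Both were lowest on array 2 and highest on array 3.

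**Figure D2:**
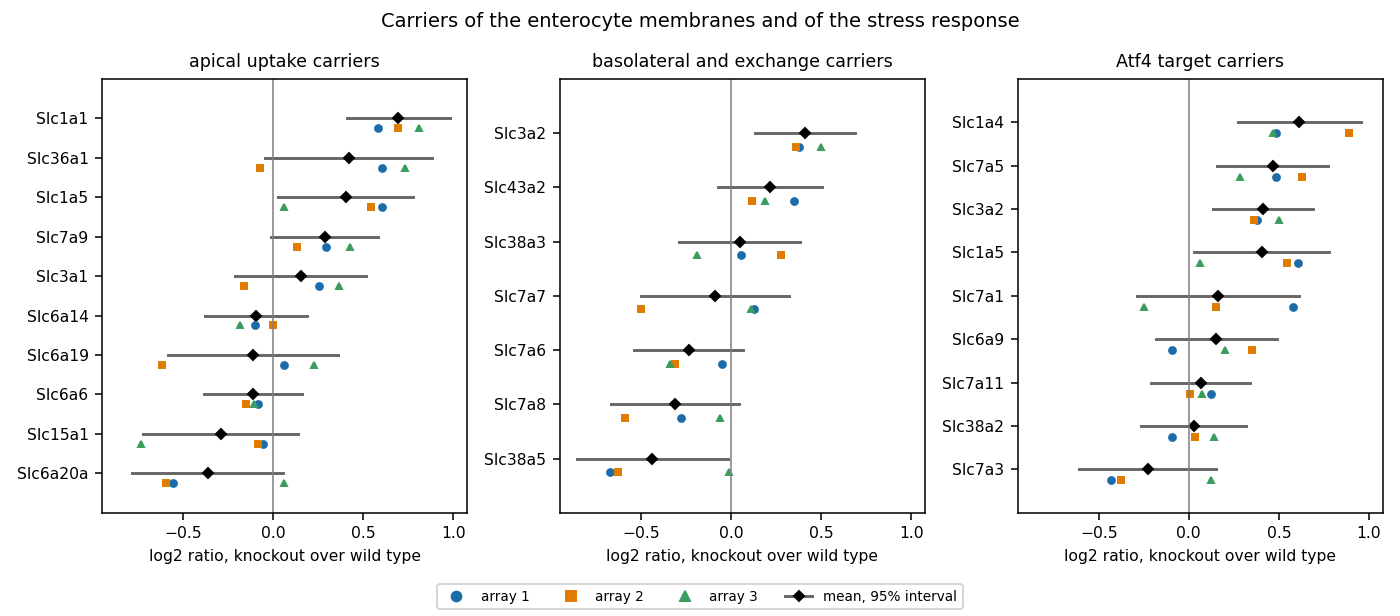
Log2 ratio of knockout over wild type (horizontal axes) of the carriers of the brush border (left), of the basolateral membrane with the exchangers (middle) and of those known as Atf4 targets (right). Diamonds are means with 95% intervals of the moderated test, and coloured points below them are the 3 arrays. The intervals of Slc1a1, Slc1a4, Slc1a5, Slc3a2 and Slc7a5 lie above 0 and that of Slc38a5 below, but none of these genes passed after adjustment over all genes.

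Among 7 basolateral and exchange carriers none passed limma's threshold. An unadjusted p under 0.05 was found for 2, 1 in each direction (28.6%, beside 26.3% of all genes). The list's median was -0.09. Slc3a2, the heavy chain shared by several light chains, had 0.38, 0.36 and 0.50 (0.41 ± 0.08, adjusted p = 0.106). Its light chains had ratios on both sides of 0, with Slc7a5 and Slc7a11, given below, above 0 on every array. Slc7a7, which exchanges cationic for neutral amino acids at the basolateral membrane, had 0.13, -0.50 and 0.11 (-0.09 ± 0.36, adjusted p = 0.758). The related Slc7a6 was below 0 on every array, at -0.05, -0.31 and -0.34 (-0.23 ± 0.16, adjusted p = 0.275).

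Slc7a8, the basolateral exchanger of neutral amino acids, had -0.28, -0.59 and -0.06 (-0.31 ± 0.27, adjusted p = 0.233). Its 10 features, which are not replicates either, were all below 0 on every array. Their SD within an array was 0.03 to 0.10, while the array means differed by more than that. The uniporter Slc43a2, which lets branched-chain amino acids and phenylalanine out, had 0.35, 0.12 and 0.19 (0.22 ± 0.12, adjusted p = 0.287). The glutamine carriers Slc38a5 and Slc38a3 had -0.67, -0.62 and -0.01 (-0.44 ± 0.37, adjusted p = 0.180) and 0.06, 0.28 and -0.19 (0.05 ± 0.23). Array 3 was near 0 for Slc38a5, and Slc38a3 changed sign between arrays.

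Carriers known as targets of Atf4, the transcription factor of the amino acid and stress response, had a median of 0.16 over 9 genes, and 8 of them had a mean above 0 (46.4% of all genes had one). None passed limma's threshold, and 4 had an unadjusted p under 0.05, all higher (44.4%, beside 12.0% of all genes). The list was chosen with earlier results of these data known, and enrichment was not tested. Slc1a4, an exchanger of serine, alanine and cysteine, had 0.49, 0.89 and 0.47 (0.61 ± 0.24, 1.53-fold higher, adjusted p = 0.0840). Slc7a5, the exchanger of large neutral amino acids that pairs with Slc3a2, had 0.48, 0.63 and 0.28 (0.47 ± 0.17, adjusted p = 0.104). Slc1a4, Slc7a5 and Slc3a2 were above 0 on all arrays, and Slc1a5, given above, was as well.

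The other 5 Atf4 target carriers had means closer to 0. Slc7a11, the cystine and glutamate exchanger, had 0.12, 0.01 and 0.07 (0.07 ± 0.06, 95% interval -0.21 to 0.34). The cationic amino acid carrier Slc7a1 had 0.58, 0.15 and -0.25, and Slc7a3, of the same group, -0.43, -0.37 and 0.12. The glycine carrier Slc6a9 had -0.09, 0.35 and 0.20, and the neutral amino acid carrier Slc38a2 -0.10, 0.03 and 0.14. Each of Slc7a1, Slc7a3, Slc6a9 and Slc38a2 changed sign between arrays.

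The element bound by Atf4 with C/EBP partners reads TGATGNAAN, where N is any base, and was searched on both strands of the same 300-base windows. It stood in 3.95% of all windows and in 5 of the 67 windows of the members (7.46%), which belonged to Slc1a4, Slc7a7, Slc7a11 and Slc15a5. Slc7a11, Slc1a4 and Slc7a7 are shown, with matches in capitals, because they hold the same element beside different ratios. The stretches lie on the minus strand of GRCm38.p6 at chr3:50443614-50443863 for Slc7a11, chr11:20332700-20332728 for Slc1a4 and chr14:54417927-54417955 for Slc7a7, from RefSeq.
Slc7a11: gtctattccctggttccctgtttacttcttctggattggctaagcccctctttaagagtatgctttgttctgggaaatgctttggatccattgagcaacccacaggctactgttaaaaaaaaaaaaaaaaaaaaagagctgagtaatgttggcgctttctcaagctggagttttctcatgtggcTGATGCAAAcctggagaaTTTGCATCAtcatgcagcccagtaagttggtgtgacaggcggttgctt
Slc1a4: tgcctcctgcGTTGCATCAtctccagcct
Slc7a7: acctagaagcTGATGCAACagcttccccg
Slc7a11 held 2 matches on opposite strands, at 66 to 58 and 48 to 40 bases before the start, and its ratio was 0.07. In Slc1a4 and Slc7a7 the match shown spans the start itself, and the ratios were 0.61 and -0.09. Slc7a7 held another match at 141 to 133 bases before that start, and the site shown was met again 243 to 235 bases before a neighbouring start. Slc7a7 had 0.13, -0.50 and 0.11 on the 3 arrays, so its mean below 0 rests on array 2, and without that array it was 0.12. The mean of Slc15a5, which also held the element, was 0.06. A difference in sign between the genes with these letters is therefore not established. The part of the element in any ratio was not tested.

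Genes of the integrated stress response outside the transporters had a median of 0.08 over 23 genes. None passed limma's threshold, and 5 had an unadjusted p under 0.05, 4 higher and 1 lower (21.7%, beside 26.3% of all genes). Trib3, a pseudokinase induced by this response, had -0.89, -0.94 and -0.67 (-0.83 ± 0.14, adjusted p = 0.0624). Shmt2, a mitochondrial enzyme of serine breakdown, had 0.82, 0.66 and 0.52 (0.67 ± 0.15, adjusted p = 0.0687). Fgf21, a secreted metabolic hormone, had 0.75 ± 0.29 (adjusted p = 0.0759). Trib3, Shmt2 and Fgf21 were named for the smallest p of the list, so their agreement between arrays follows from the choice. Of all 23 genes, 12 had the same sign on every array (52.2%, beside 50.6% of all genes). By mean, 12 of the 23 lay above 0 and 11 below.

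The Slc38 family, sodium-coupled carriers of glutamine and other neutral amino acids and their relatives, held genes far from 0 on both sides. Slc38a7, which lets glutamine out of the lysosome, had 0.83, 1.08 and 0.58, above 0.5 on every array, and the highest mean of all members (0.83 ± 0.25, 1.78-fold higher, adjusted p = 0.0659). Slc38a11, a carrier of little known function, had -0.75, -1.24 and -0.82 (-0.93 ± 0.27, 1.91-fold lower, adjusted p = 0.0640). Its 2 features were both below 0 on every array but differed in size, with -1.18, -2.02 and -1.54 for one and -0.32, -0.46 and -0.09 for the other. Tested as features over all 62976, the first had a mean of -1.58 ± 0.42 and an adjusted p of 0.0546, and 1 feature of the 99, that of Slc15a2, passed (0.516% of all features did).

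Slc38a4, a carrier abundant in liver and placenta and chosen after its values were seen, had -1.63, -0.18 and -0.97 (-0.93 ± 0.73, adjusted p = 0.122), with array 2 near 0. Slc38a1, Slc38a2 and Slc38a4 stand in 1 cluster in the RefSeq gene table of GRCm38.p6, and Slc38a1 had 0.10 ± 0.19. The 3 features of Slc38a1 disagreed, with means of 0.52, -0.07 and -0.16. The median of the 11 Slc38 genes was -0.12. In the Slc43 family Slc43a1 had -0.54, -0.05 and -0.04 (-0.21 ± 0.29).

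In the Slc36 family of proton-coupled carriers, 3 of 4 genes were below 0 on every array (27.3% of all genes were). Of these Slc36a3 had a mean of only -0.04, and Slc36a4 was near 0 on arrays 1 and 2. Slc36a2, a carrier of small amino acids known from kidney and as a marker of brown and beige fat, had -1.77, -1.58 and -0.52 (-1.29 ± 0.67, 2.44-fold lower, 95% interval -1.93 to -0.64, adjusted p = 0.0768). All arrays were below 0, with array 3 closest to it. Adipocyte genes were lower in the same RNA, with a median of -2.10 over 8 genes, all with a mean below 0 and 5 past the threshold. Plin1, the coat protein of fat droplets, had -2.09, -2.33 and -1.94. Over the list the SD over arrays had a median of 0.38, and Fabp4, a fatty acid binding protein, had -1.19, -0.37 and -0.33. The part of fat in the Slc36a2 ratio was not tested.

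Slc36a1, Slc36a2 and Slc36a3 stand in 1 cluster in the same gene table, and their means were 0.42, -1.29 and -0.04. The Slc36a3 mean hid 2 features of opposite sign. One had 0.10, 0.60 and 0.02 and the other -0.19, -0.67 and -0.09. It was the only member with a feature above 0 and another below 0 on all arrays. Slc36a4, chosen after its values were seen, had -0.13, -0.02 and -1.39, so that its mean of -0.51 ± 0.76 rests on array 3.

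**Figure D3:**
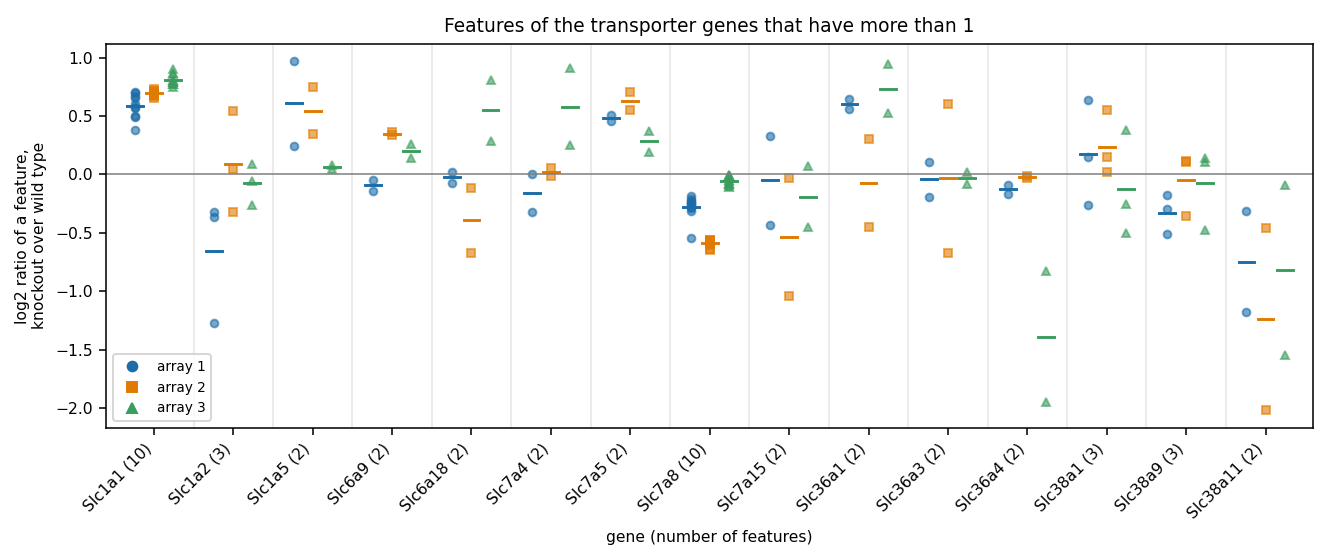
Log2 ratio of knockout over wild type (vertical axis) of each feature of the 15 members with more than 1 feature (horizontal axis, number of features in brackets). Points are features, coloured by array, and short lines are the mean of a gene on an array. The 10 features of Slc1a1 and of Slc7a8 lie close together on each array, while the 2 features of Slc38a11 and of Slc36a3 lie far apart on array 2.

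Carriers of neurotransmitters had a median of -0.01 over 12 genes. None passed limma's threshold, and 2 had an unadjusted p under 0.05, both lower (16.7%, beside 14.3% of all genes). Of the 12, 10 changed sign between arrays, so that 16.7% had the same sign on all (50.6% of all genes). The dopamine carrier gene Slc6a3 had -0.89, -2.25 and -0.76 (-1.30 ± 0.83, 2.46-fold lower, adjusted p = 0.0896), the lowest mean of all members. It was below -0.7 on every array and lowest on array 2. The noradrenaline carrier gene Slc6a2 had 0.30, 2.16 and -0.20 (0.75 ± 1.24, adjusted p = 0.328), so that its mean rests on array 2. Slc6a13, which takes up GABA and taurine, had -0.91, 0.03 and -0.76 (-0.55 ± 0.50, adjusted p = 0.174).

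The glutamate carrier genes of this list had means nearer 0. Slc1a7 had 0.33, 0.14 and 0.28 (0.25 ± 0.10, adjusted p = 0.231), and the glial carrier gene Slc1a2 -0.65, 0.09 and -0.08 (-0.21 ± 0.39). The other glial glutamate carrier gene, Slc1a3, chosen after its values were seen, had 0.06, -0.66 and 0.58, so that its mean near 0 came from arrays of opposite sign. The Slc1 family had the highest median among families of more than 2 genes, at 0.25 over 7 genes. Of these 7, 3 had an unadjusted p under 0.05, all higher (42.9%, beside 12.0% of all genes). Enteric neuron genes had a median of -0.12 over 11 genes, 8 of them with a mean below 0, and medians of -0.16, -0.24 and -0.21 on the arrays. The neuropeptide gene Vip, the lowest of them, had -0.90 ± 0.51. The part of neurons in the ratios of these carriers was not tested.

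Lysosomal carriers had a median of 0.05 over 7 genes, with none past limma's threshold. Slc38a7 above 0 and Slc7a14 below had an unadjusted p under 0.05 (28.6% of the list, beside 26.3% of all genes). Slc7a14, a lysosomal member of the cationic amino acid carriers known from neural tissue, had -0.46, -0.80 and -0.50 (-0.59 ± 0.18, adjusted p = 0.0815). The list of cationic amino acid carriers held Slc7a1, Slc7a2, Slc7a3 and Slc7a4 and left out Slc7a14. None of the 4 listed genes passed limma's threshold or had an unadjusted p under 0.05. Slc7a2, the carrier that supplies arginine in macrophages and liver, had 0.64, -0.13 and 0.65 (0.39 ± 0.45). Each of these 4 genes changed sign between arrays. Slc7a6os had -0.06, -0.44 and -0.28 and its neighbour Slc7a6 the values given above, both below 0 on every array.

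Of 18 measured genes that assist absorption, the carrier partners, peptidases and ion pumps of the enterocyte, 1 passed limma's threshold (0.328% of all genes did). An unadjusted p under 0.05 was found for 5, 1 higher and 4 lower (27.8%, beside 26.3% of all genes). Cltrn (collectrin), which brings neutral amino acid carriers such as Slc6a19 to the membrane in kidney, had -1.24, -1.30 and -0.95 (-1.16 ± 0.19, 2.24-fold lower, adjusted p = 0.0490). Cltrn was near -1 on all arrays, where Slc6a19 had ratios on both sides of 0. The brush border aminopeptidase gene Anpep had 0.98, 0.69 and 0.81 (0.83 ± 0.15, adjusted p = 0.0625). Tmprss15, the protease that starts the activation of trypsinogen, had -0.47, -1.42 and -0.83 (-0.91 ± 0.48, adjusted p = 0.0828). The list had a median of -0.07, with 11 genes below 0 and 7 above.

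Enzymes of amino acid metabolism in the enterocyte had a median of -0.04 over 24 genes, 12 on each side of 0. None passed limma's threshold, and 9 had an unadjusted p under 0.05, 6 higher and 3 lower (37.5%, beside 26.3% of all genes). Aldh18a1, which makes the precursor of proline and ornithine from glutamate, had 1.12, 1.30 and 0.61 (1.01 ± 0.36, adjusted p = 0.0648). Bcat2, the aminotransferase of branched-chain amino acids, had 0.86 ± 0.42 (adjusted p = 0.0805), and Ass1, which acts in arginine synthesis, 0.61 ± 0.14 (adjusted p = 0.0740). Aldh18a1, Bcat2 and Ass1 were above 0.4 on every array. These genes were named for the smallest p of the list, so their agreement between arrays follows from the choice.

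Genes of amino acid sensing through mTOR had a median of -0.02 over 32 genes, with none past limma's threshold. An unadjusted p under 0.05 was found for 7, 4 higher and 3 lower (21.9%, beside 26.3% of all genes). The folliculin partner gene Fnip1 had -0.99, -0.64 and -0.71 (-0.78 ± 0.19, adjusted p = 0.0642). Wdr24, of the complex that relays amino acid signals, had 0.51 ± 0.09 (adjusted p = 0.0840), and Lamtor2, part of the lysosomal anchor of this pathway, -0.43 ± 0.13 (adjusted p = 0.108).

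Several cell type lists measured in the same RNA had medians farther from 0 than the transporters. Genes of absorptive enterocytes, the cells in which most of the uptake carriers act, had a median of -0.17 over 17 genes. Their array medians were 0.08, 0.07 and -0.31, and 11 had a mean below 0 and 6 above. The 3 with an unadjusted p under 0.05 in limma's test were all higher (17.6%, beside 12.0% of all genes). On every array 5 were above 0 and 1 was below. Crypt and dividing cell genes had a median of 0.48 over 8 genes, with 6 above 0 on every array. Lgr5 was below 0 on every array, at -0.60, -0.67 and -0.04, and Smoc2 had a mean of -0.03. Mast cell genes had array medians of -3.49, 0.03 and -2.64, erythroid genes a median of -1.26 and pancreatic acinar genes -0.52. Enteroendocrine genes had a median of -0.99 over 11 genes, with 4 past the threshold, all lower, and T cell genes -0.51 over 9 genes, with 7 below 0 on every array. Array 2 held the lowest of the 3 ratios for 30 of the 65 members, array 1 for 17 and array 3 for 18. The same count was not made over all genes, whose medians were -0.026, -0.032 and -0.001 on the arrays. Whether it is particular to the transporters is therefore not known. The correlation over members, given as a description of points that share arrays and probes, was 0.56 between arrays 1 and 2. It was 0.64 between arrays 1 and 3 and 0.38 between arrays 2 and 3. Over all genes these correlations were 0.43, 0.57 and 0.41, in the same order. The part of cell composition in any transporter ratio was not tested.

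**Figure D4:**
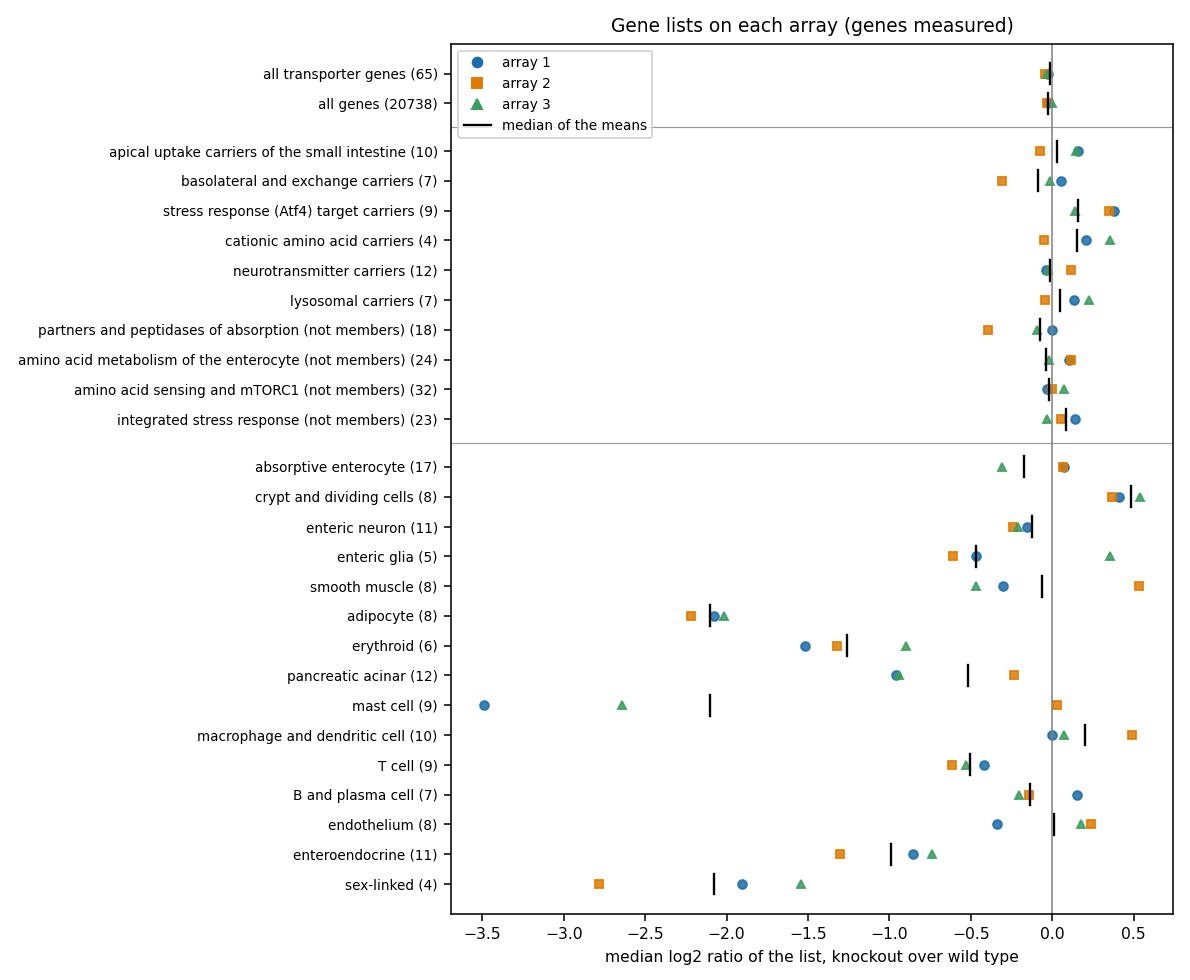
Median log2 ratio of knockout over wild type (horizontal axis) for the transporters, all genes, lists of carriers by role, other lists of amino acid handling, and lists of cell type markers (rows, genes measured in brackets). Points are the medians on the 3 arrays and black ticks the medians of the gene means. The transporters lie at -0.02 and all genes at -0.03, while adipocyte genes lie at -2.10 and mast cell genes range from -3.49 to 0.03.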

How the data were processed

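What the authors deposited is 1 log2 ratio per feature and array, for 62976 features on 3 arrays, and no value is missing. Dyes are per the labels. How the authors corrected background, normalized and filtered, and the log base and direction they used, is not given in the sources used here. The usual base 2 was taken, and every sign would turn if Cy3 over Cy5 had been deposited. Array medians were 0.007, 0.003 and 0.011, so no further scaling was done.

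Features were named through the platform annotation, updated by accession with RefSeq's gene table of GRCm38.p6, and averaged per gene and array. In limma 3.58.1 (R 4.3.3), lmFit and eBayes compared the mean ratio of each gene with 0 (2 residual and 3.51 prior degrees of freedom, two-sided), with Benjamini-Hochberg adjustment over 20738 genes, after the scripts were tested on simulated data. Gene-specific dye effects cannot be separated, and if the wild-type RNA was a pool the spread of wild-type mice is left out. The labels give each array a different mouse but not the litters, and p-values measure only the spread between these samples.

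The members, the lists and the naming rule were chosen with earlier results of these data known. The rule named members past the threshold, the smallest p in each direction per family, the carriers of the first 3 role lists, members whose features opposed each other on all arrays, and up to 3 genes of each other list. Of the enteric glia list all 5 measured genes are given. Alternatives were the median of features, centring each array, robust eBayes, the best feature, symbols as given and leaving out each array. Figures were made with Python 3.11.15 and matplotlib 3.10.9.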

Additional observations from a re-analysis of the deposited data

How the results depend on the processing

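Slc15a2 was the 1 transporter past the threshold also with the median of features, centred arrays, robust eBayes, its best feature tested over all features, and symbols as given. Without any 1 array the count was 0 (range 0 to 0), for genes and for features, with 9 to 17 members at an unadjusted p under 0.05. Its direction held in all of these. Centring each array took the count of features past the threshold from 1 to 2 and the median of all members from -0.02 to 0.0033. The Slc38 median was -0.026 with the median of features (from -0.12). With 1 array left out, the median ran from -0.068 to -0.037 for all members, from 0.21 to 0.32 for Slc1, from -0.40 to -0.057 for Slc36, from -0.096 to -0.061 for Slc38, from 0.21 to 0.38 for Slc3, from -0.11 to -0.088 for Slc6, from -0.13 to 0.097 for Slc7, from -0.065 to 0.0015 for Slc15, from -0.29 to 0.0035 for Slc43, from -0.20 to -0.066 for the basolateral, from 0.095 to 0.19 for the cationic, from -0.065 to 0.18 for the lysosomal and from -0.093 to 0.033 for the neurotransmitter carriers, from -0.0005 to 0.23 for the apical carriers and from 0.17 to 0.36 for the Atf4 target carriers, and the cause was not tested. The mean of 18 of the 65 members, none of which passed, changed sign when 1 array was left out, Slc6a19 and Slc7a7 among them. No paired analysis was possible because all arrays form 1 group. A natural log base would make folds larger, and without intensities features near background could not be removed.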
